A study of Mus musculus with 6 samples.

Results

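The genes described here are 32 genes of cholesterol and fatty acid synthesis, chosen by symbol from the deposited expression table of Tet1/Tet2 siRNA-treated mouse bone marrow mesenchymal stem cells (BMMSCs). The table holds 36870 distinct symbols, and all 32 chosen genes were found in it, none at the lowest listed value. They comprise 8 enzymes of the mevalonate steps, 3 of squalene formation and ring closure, 8 of the conversion of lanosterol to cholesterol, 6 regulators and transport proteins, and 7 genes of acetate activation and fatty acid synthesis. No receptor for lipoprotein uptake is among the 32, so uptake is not described.

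BMMSCs are the adherent cells grown out of flushed femurs and tibias, here from C57BL/6 mice whose age is not given in the sources used here. The control group (n = 3) received non-targeting control siRNA according to the siRNA methods and the labels, whereas the RNA-sequencing methods call it vehicle-treated. The Tet1/Tet2 siRNA group (n = 3) received siRNAs against Tet1 and Tet2 together, so the effect of either gene alone cannot be told apart. Tet1 and Tet2 encode dioxygenases that oxidize 5-methylcytosine in DNA, and the libraries let the expression of any gene set be compared between cells with and without the siRNAs. The labels place the cells at passage 2 and the methods at passage 1. Nothing states that the libraries of a group came from separate cultures or animals, so the p-values measure only the spread between these libraries, which may be technical.

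Cells build cholesterol from acetyl-CoA through mevalonate, farnesyl diphosphate, squalene and lanosterol. The transcription factor SREBP-2 (gene Srebf2) drives most genes of this route, and SREBP-1 (Srebf1) favours those of fatty acid synthesis. When sterols are low, the escort protein SCAP carries both factors from the endoplasmic reticulum to the Golgi for cleavage, and when sterols are plentiful the INSIG proteins hold SCAP back. Because this control works on protein processing, the level of the Srebf transcripts need not follow the activity of the factors. Several enzymes of the pathway are short-lived, and many intermediates have roles of their own in signalling and in the modification of proteins.

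RNA levels are given as RPKM, read numbers corrected for transcript length and for the size of the library, as mean ± SD over 3 libraries. The groups were compared on log2(RPKM + 1) with limma across the 13266 genes whose average over the libraries reached 0.1 RPKM, and a gene was called higher or lower at a Benjamini-Hochberg adjusted *p* under 0.05. Fold changes in the text are ratios of the group means, and log2 fold changes are on the log2(RPKM + 1) scale, on which weakly expressed genes appear to change less. The libraries were estimated to hold between 32400000 and 38500000 reads. At that depth the 32 genes rested on an estimated 104 to 6778 reads each per library. Fads2 had the fewest and Msmo1 the most. These estimates used the length of the longest transcript of each gene in the GENCODE M21 annotation, which may differ from the length behind the deposited RPKM.

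Tet2 was 3.45 ± 0.785 RPKM in the control group and 0.266 ± 0.0817 RPKM in the siRNA group, a log2 fold change of -1.80 (adjusted *p* = 2.88e-05, limma). Tet1 was under the minimum for testing, at 0.0600 ± 0.0341 against 0.00400 ± 0.00520 RPKM. Markers of cell types differed between the groups as well, and their counts stand beside the 14.7% of all genes tested that were higher and the 29.8% that were lower. Of the 14 stromal markers, 9 of the 11 tested (81.8%) were lower and none higher, and their summed level was 1115 to 1619 RPKM in control libraries and 141.8 to 285.0 RPKM in siRNA libraries; Thy1, Lum and Lepr were near 0 in both groups. Of 11 macrophage and haematopoietic markers, 6 were higher (54.5%) and 3 lower (27.3%, near the share of all genes), with sums of 5655 to 7591 and 13184 to 16310 RPKM. Lyz2 alone, at 4439 RPKM in the control group and 11321 RPKM in the siRNA group, made up most of these sums. Csf1r was 1.21-fold higher, and Fcgr1 was 3.92-fold lower. Ptprc, which encodes the leukocyte antigen CD45, stood at 52.6 RPKM in the control group and 53.0 RPKM in the siRNA group. Of 6 adipocyte markers, 5 were higher (83.3%) and 1 was lower (16.7%), with sums of 1211 to 1371 and 2023 to 2221 RPKM. The lower marker was Pparg, at 32.5 RPKM in the control group and 19.7 RPKM in the siRNA group. Lpl (880 and 1201 RPKM) and Fabp4 (277 and 616 RPKM) made up most of these sums. Adipoq (3.35 and 7.60 RPKM) and Plin1 (1.11 and 3.16 RPKM) had the lowest levels of the 6. The 6 neutrophil markers had summed levels of at most 16.2 RPKM, with 1 of 2 tested higher and 1 lower and S100a9 at the lowest listed value in both groups, and the erythroid markers at most 0.162 RPKM, with none tested. Of 7 proliferation genes, 1 was higher and 1 lower (14.3% each), with sums of 351.8 to 394.2 and 345.9 to 368.4 RPKM. The part of these differences in the results below was not tested, and in bulk RNA fewer cells of a type and less RNA per cell cannot be told apart.

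Of the 32 genes, 10 were higher in the siRNA group (Hmgcs1, Pmvk, Mvd, Msmo1, Dhcr7, Insig1, Stard4, Scd1, Scd2 and Fads1), 3 were lower (Hsd17b7, Insig2 and Fads2) and 19 did not pass the test. The 10 higher genes were 31.3% of the 32, where 14.7% of all genes tested were higher, and the 3 lower genes were 9.38%, where 29.8% of all genes tested were lower. The summed level of the 32 genes was 415.8 to 435.0 RPKM in control libraries and 497.4 to 516.7 RPKM in siRNA libraries, a ratio of 1.19, with no overlap. The control and siRNA values did not overlap in 17 genes, with siRNA higher in 13 (40.6%, against 19.8% of all genes tested) and lower in 4 (12.5%, against 35.9%). The median log2 fold change was 0.10 over the 32 genes and -0.09 over all genes tested, and 23 of the 32 values were above 0. Only Scd1 was altered by the study's thresholds of an unadjusted *p* under 0.05 and a fold over 2, where 6.58% of all genes tested were; without control 1, control 2 or siTet1/Tet2 replicate 2 no gene was. Without siTet1/Tet2 replicate 3 the log2 fold change of Scd1 was 0.91, under 2-fold, and the 1 altered gene was Fads2 at -1.02. Fads2 was likewise the 1 altered gene with the libraries brought to equal sums (-1.06, with Scd1 at 0.98). That scaling raised the sums above the deposited 393567 to 440433 RPKM, so the added 1 weighed less. With a pseudocount of 0.1 and no rescaling, Fads2 was at -1.20 and Scd1 at 1.06. With the ratio of group means as the fold, both Scd1 and Fads2 were altered.

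The split of the calls depended on how the libraries were scaled. Over all genes the median moved from -0.09 to -0.15 when the libraries were brought to equal sums, to -0.01 under median ratio scaling and to 0.06 under quantile normalization. The 32 genes then split into 7 higher and 3 lower, 13 higher and 2 lower, and 17 higher and 2 lower, in that order. Of all genes tested, 10.9% were higher and 31.2% lower, 20.3% and 23.4%, and 27.1% and 19.9%, in the same order. The share of higher calls thus rose over all genes as well. Their own median was 0.05, 0.19 and 0.26 under these scalings, above that of all genes in each. Hmgcs1, Mvd, Msmo1, Dhcr7, Insig1, Scd1 and Fads1 were called higher under all 4 scalings, and Hsd17b7 and Fads2 were called lower under all 4.

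**Figure D1:**
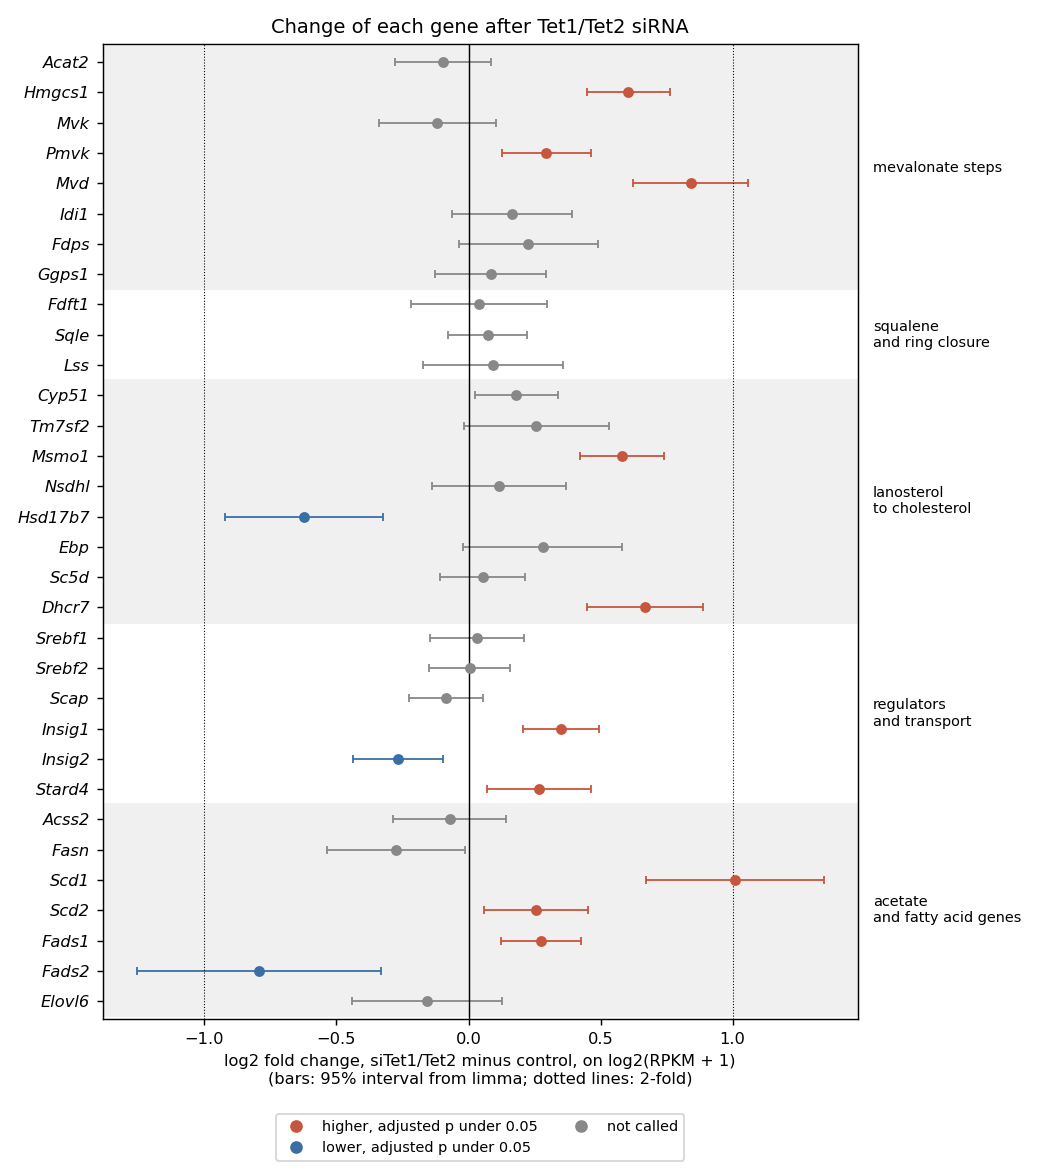
Log2 fold change of each of the 32 genes, siRNA minus control on log2(RPKM + 1), grouped by role, with bars for the 95% confidence interval from limma, red for genes called higher, blue for lower and grey for not called, and dotted lines at a 2-fold change. The 10 genes called higher lie between 0.26 (Scd2) and 1.01 (Scd1), and the 3 called lower between -0.79 (Fads2) and -0.27 (Insig2).

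**Figure D2:**
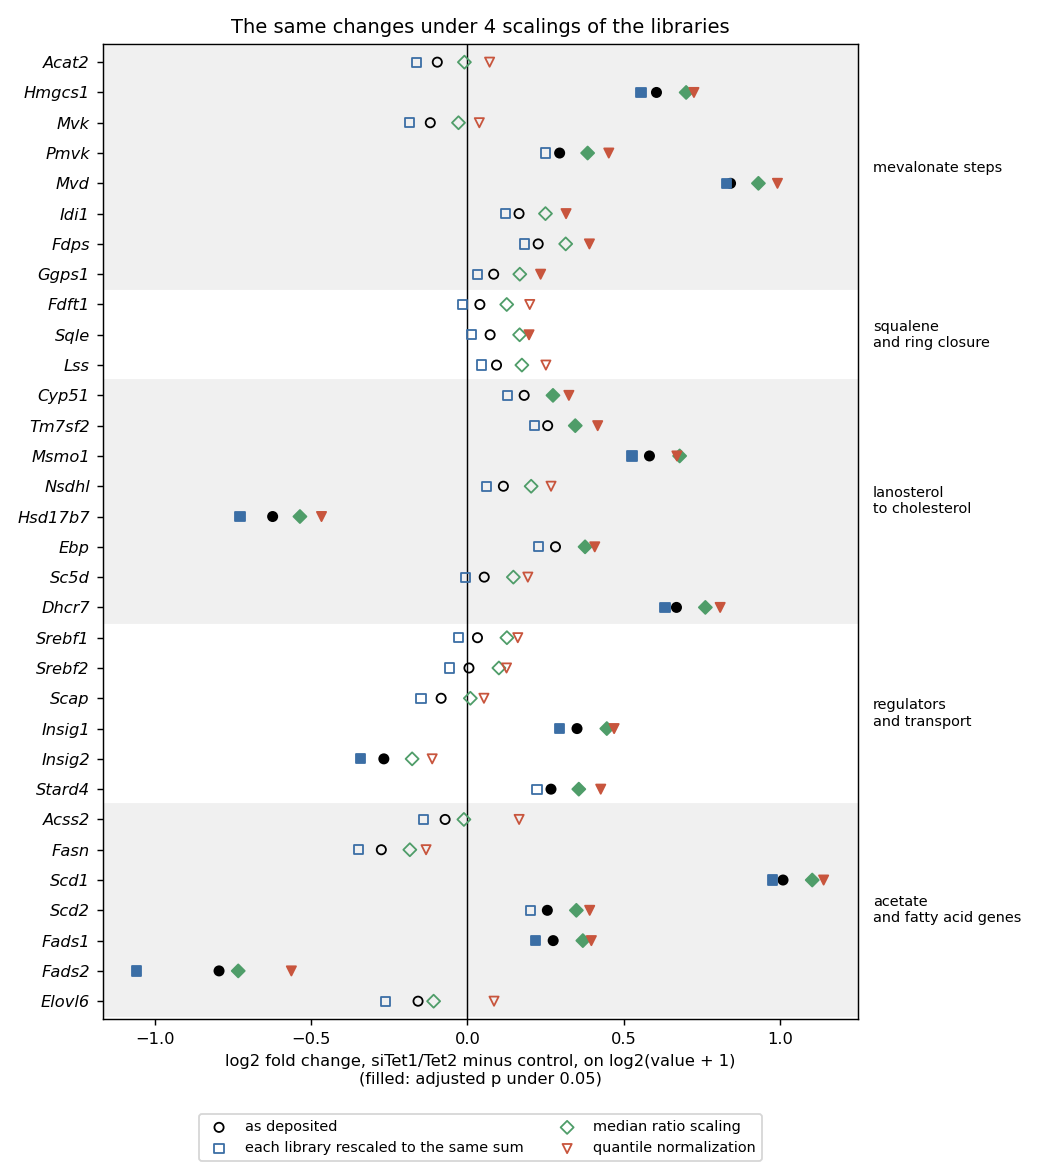
Log2 fold change of the 32 genes under 4 scalings of the libraries (symbols), with filled symbols for an adjusted p under 0.05. The values move to the right from the equal-sum scaling to the quantile normalization, and the number of filled symbols to the right of 0 rises from 7 to 17. Over the same scalings the share of all genes tested that were higher rises from 10.9% to 27.1%.

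The promoters of 4 genes that were higher and 1 that was lower, picked after their values were seen, are shown because SREBPs bind the sterol regulatory element (SRE) in the promoters of such genes together with factors of the CCAAT box. Promoter windows from 250 bases before to 50 bases after a RefSeq transcription start (GRCm38.p6) were at hand for 25 of the 32 genes, 33 windows in all. The motifs TCACNCCAC (an SRE), CCAAT and CACGTG (an E-box) were searched on both strands. They are in capitals in the windows below, each printed 5′ to 3′ along its gene, and none of the marked motifs overlaps another. The windows are chr13:119690101-119690400 (plus strand) for Hmgcs1, chr8:64733529-64733828 (minus) for Msmo1, chr8:122443373-122443672 (minus) for Mvd, chr5:28071162-28071461 (plus) for Insig1 and chr1:169969156-169969455 (minus) for Hsd17b7.
Hmgcs1: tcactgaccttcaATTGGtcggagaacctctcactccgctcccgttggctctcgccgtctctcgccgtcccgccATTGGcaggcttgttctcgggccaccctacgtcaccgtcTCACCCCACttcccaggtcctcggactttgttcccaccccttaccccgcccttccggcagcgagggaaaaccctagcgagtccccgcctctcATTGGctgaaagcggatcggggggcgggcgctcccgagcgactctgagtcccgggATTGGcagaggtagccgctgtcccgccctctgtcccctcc
Msmo1: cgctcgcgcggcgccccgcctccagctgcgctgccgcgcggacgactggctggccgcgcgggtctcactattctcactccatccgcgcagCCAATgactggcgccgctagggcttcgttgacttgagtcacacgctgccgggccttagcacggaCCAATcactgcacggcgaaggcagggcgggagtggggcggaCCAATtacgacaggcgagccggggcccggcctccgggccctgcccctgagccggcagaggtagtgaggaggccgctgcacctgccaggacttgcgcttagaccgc
Mvd: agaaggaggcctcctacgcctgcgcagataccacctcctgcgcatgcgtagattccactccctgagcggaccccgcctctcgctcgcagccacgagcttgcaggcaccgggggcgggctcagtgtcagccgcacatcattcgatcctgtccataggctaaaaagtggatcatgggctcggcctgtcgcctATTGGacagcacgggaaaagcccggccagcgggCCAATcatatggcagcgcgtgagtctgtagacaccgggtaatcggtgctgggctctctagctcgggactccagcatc
Insig1: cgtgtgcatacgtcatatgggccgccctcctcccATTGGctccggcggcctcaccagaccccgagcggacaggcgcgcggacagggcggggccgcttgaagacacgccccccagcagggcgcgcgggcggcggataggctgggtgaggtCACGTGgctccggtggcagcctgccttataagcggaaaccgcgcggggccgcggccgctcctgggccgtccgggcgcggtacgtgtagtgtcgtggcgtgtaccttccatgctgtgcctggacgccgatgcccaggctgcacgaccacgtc
Hsd17b7: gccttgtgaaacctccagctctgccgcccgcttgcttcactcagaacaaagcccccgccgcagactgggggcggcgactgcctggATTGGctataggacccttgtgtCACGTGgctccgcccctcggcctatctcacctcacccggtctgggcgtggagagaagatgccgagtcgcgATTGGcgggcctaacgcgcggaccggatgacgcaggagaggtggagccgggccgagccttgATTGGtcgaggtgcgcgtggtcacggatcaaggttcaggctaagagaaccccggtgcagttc

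The SRE was found in 1 of the 33 windows, that of Hmgcs1, as TCACCCCAC starting 137 bases before the start site, where 1.24% of 32851 windows of all genes held it. CCAAT was present in 22 of the 33 windows (66.7%), where 37.4% of all windows and 37.5% of the windows of genes tested held it. It occurred 4 times in the window of Hmgcs1, 3 times in those of Msmo1 and Hsd17b7, 2 times in that of Mvd and 1 time in that of Insig1. The E-box was found in 6 windows of 5 genes (18.2% of windows, against 7.15% of all and 9.70% of those of genes tested), among them Insig1 and Hsd17b7. The windows of Scap overlap and hold the same E-box, which was counted in each. By the outcome of the expression test, 6 of 9 windows of higher genes, 2 of 5 of lower genes and 14 of 19 of genes that were not called held CCAAT. Some genes had several windows. By gene, 6 of 6 higher, 2 of 3 lower and 13 of 16 not called held CCAAT in at least 1 window. This motif thus occurred in all 3 classes. The GC box GGGCGG was searched as well and is not marked above. It was in 25 windows (75.8%, against 35.7% of all and 61.2% of those of genes tested). By class, these were 6 of 9 windows of higher genes, 4 of 5 of lower genes and 15 of 19 of genes not called. The median ratio of observed to expected CpG, the dinucleotide that Tet enzymes act on, was 0.763 in the 33 windows and 0.740 in those of genes tested. These are matches of letters and were not examined for binding or methylation.

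In the mevalonate steps, 3 of 8 genes (37.5%, against 14.7% of all genes tested) were higher in the siRNA group and none was lower (29.8% of all genes tested). Hmgcs1 encodes the cytosolic synthase that joins acetyl-CoA and acetoacetyl-CoA to HMG-CoA. Its level was 19.5, 21.8 and 21.5 RPKM in the control libraries and 31.9, 31.2 and 33.9 RPKM in the siRNA libraries. All siRNA values thus lay above all control values, and the means of 20.9 ± 1.25 and 32.3 ± 1.43 RPKM differed 1.54-fold (log2 fold change 0.60, SE 0.07, adjusted *p* = 0.000216). Mvd, the decarboxylase that turns mevalonate diphosphate into isopentenyl diphosphate, measured 8.12, 7.27 and 6.38 RPKM in the control group and 14.6, 13.3 and 13.3 RPKM in the siRNA group. It had the largest increase of the 8 genes, from 7.25 ± 0.870 to 13.7 ± 0.713 RPKM (1.89-fold, log2 fold change 0.84, SE 0.09, adjusted *p* = 0.000214). Pmvk, phosphomevalonate kinase, acts just before Mvd and was 8.79, 8.67 and 8.95 RPKM in the control group and 11.2, 11.5 and 10.4 RPKM in the siRNA group. The groups did not overlap, and the change was 1.25-fold (log2 fold change 0.29, SE 0.07, adjusted *p* = 0.0120), with an adjusted *p* of 0.0570 without siTet1/Tet2 replicate 2 and 0.0520 with the libraries brought to equal sums.

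The other 5 genes of these steps did not pass the test. Mvk, the mevalonate kinase, precedes Pmvk and Mvd in the route, and its log2 fold change was -0.12 (95% interval -0.34 to 0.10). Its values of 9.82 to 12.2 RPKM in control libraries and 9.61 to 10.9 RPKM in siRNA libraries overlapped. Acat2, which makes acetoacetyl-CoA, had a log2 fold change of -0.10 with overlapping groups. Fdps, the synthase of farnesyl diphosphate, was 6.28 to 8.66 RPKM in the control group and 8.68 to 9.59 RPKM in the siRNA group, without overlap (log2 fold change 0.23, adjusted *p* = 0.142). Idi1, an isomerase of isopentenyl diphosphate, and Ggps1, the synthase of geranylgeranyl diphosphate, had log2 fold changes of 0.17 and 0.08. Under quantile normalization Fdps, Idi1 and Ggps1 were called higher (adjusted *p* of 0.0350, 0.0217 and 0.0357). The summed level of the 8 genes was 74.5 ± 2.61 RPKM in the control group and 95.6 ± 1.84 RPKM in the siRNA group.

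Some of these values carry uncertainty from shared sequence. The 100-base stretches of the longest transcript of each gene in GENCODE M21 were compared with the transcripts of all other genes. For Acat2, 35.3% also occur in Acat3 or Tcp1, and for Idi1 27.6% occur in other genes. For Hmgcs1 10.8% are shared with its antisense neighbour Gm48342, and for Fdps 26.7% of exon bases overlap Gm43738. No such stretch was shared for Mvd, Pmvk and Mvk.

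None of the 3 genes of squalene formation and ring closure was higher or lower by limma, nor did any have an unadjusted *p* under 0.05. Sqle encodes squalene epoxidase, a rate-limiting enzyme of the later pathway. Its level was 22.4, 21.3 and 20.4 RPKM in control libraries and 21.6, 22.8 and 23.2 RPKM in siRNA libraries. These values overlapped, and the log2 fold change of 0.07 had a 95% interval of -0.08 to 0.22, while under quantile normalization Sqle was called higher at 0.20 (adjusted *p* = 0.0312). Fdft1, squalene synthase, and Lss, which closes the sterol ring, had log2 fold changes of 0.04 and 0.09 with overlapping groups. For Fdft1, 21.5% of the 100-base stretches occur elsewhere, in Ctsb, whose exons overlap it, or in Gm6781.

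**Figure D3:**
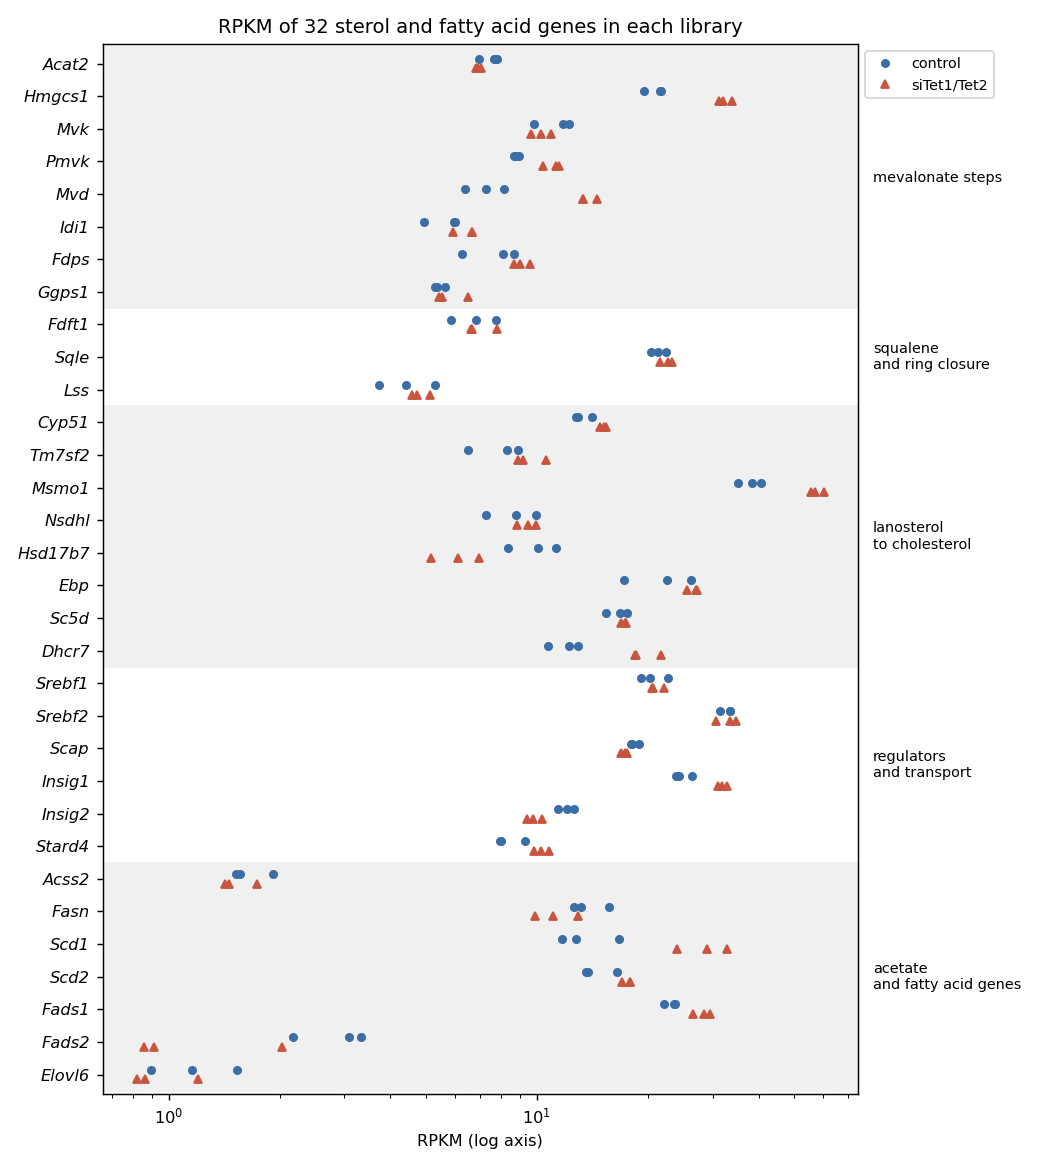
RPKM of the 32 genes in each of the 6 libraries on a log axis, grouped by role, with a circle for each control library and a triangle for each siRNA library. The triangles lie above the circles in RPKM without overlap in 13 genes and below them in 4.

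Of the 8 genes that convert lanosterol to cholesterol, 2 were higher (25.0%, against 14.7% of all genes tested) and 1 was lower (12.5%, against 29.8%). Msmo1, the C-4 methylsterol oxidase, had the highest level of the 32 genes in both groups. It measured 40.6, 38.4 and 35.3 RPKM in the control group and 60.1, 56.8 and 55.4 RPKM in the siRNA group. The means of 38.1 ± 2.66 and 57.4 ± 2.40 RPKM differed 1.51-fold (log2 fold change 0.58, SE 0.07, adjusted *p* = 0.000276). Dhcr7 encodes the 7-dehydrocholesterol reductase of the last step of one arm of the pathway. Its values were 13.0, 12.2 and 10.7 RPKM in the control group and 21.8, 18.5 and 18.5 RPKM in the siRNA group. No control value reached the lowest siRNA value, and the means differed 1.64-fold (log2 fold change 0.67, SE 0.10, adjusted *p* = 0.000742).

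Hsd17b7 went the other way. It encodes a 3-ketosteroid reductase that acts in the same removal of the C-4 methyl groups as Msmo1. Its level was 11.3, 8.36 and 10.0 RPKM in control libraries and 6.98, 5.15 and 6.09 RPKM in siRNA libraries. Every siRNA library was below every control library, and the mean was 1.63-fold lower (9.89 ± 1.46 against 6.07 ± 0.915 RPKM, log2 fold change -0.62, SE 0.13, adjusted *p* = 0.00545). With no filter on low values the adjusted *p* was 0.0847. Nsdhl, the decarboxylating dehydrogenase of the same removal, had a log2 fold change of 0.12 with overlapping groups, so the 3 measured genes of this reaction series comprised 1 that was higher, 1 that was lower and 1 that was not called.

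Cyp51, the lanosterol demethylase, was 12.9, 14.1 and 12.8 RPKM in the control group and 14.9, 15.2 and 15.4 RPKM in the siRNA group. The groups were separate, but the log2 fold change of 0.18 (SE 0.07) had an adjusted *p* of 0.0605. Tm7sf2, a sterol C-14 reductase, was also separate between the groups (6.49 to 8.86 against 8.89 to 10.6 RPKM, log2 fold change 0.26, adjusted *p* = 0.115), and 12.1% of its exon bases overlap Vps51. Ebp, the sterol isomerase, ranged from 17.3 to 26.2 RPKM in control libraries and from 25.6 to 27.1 RPKM in siRNA libraries, with 1 control library inside the siRNA range (log2 fold change 0.28, adjusted *p* = 0.115). All 3 genes were called higher under median ratio scaling (adjusted *p* of 0.0110 for Cyp51, 0.0467 for Tm7sf2 and 0.0486 for Ebp) and under quantile normalization (0.00534, 0.0283 and 0.0374). Cyp51 was also called with gene-wise variance (0.0410) and Ebp without control 1 (0.0209). Sc5d, the desaturase that precedes Dhcr7, had a log2 fold change of 0.05 (95% interval -0.11 to 0.21).

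Of the 6 regulators and transport genes, 2 were higher (33.3%, against 14.7% of all genes tested) and 1 was lower (16.7%, against 29.8%). The transcripts of the SREBPs themselves were not called. Srebf2 was 33.4, 31.5 and 33.4 RPKM in the control group and 30.6, 33.5 and 34.7 RPKM in the siRNA group, with a log2 fold change of 0.00 (95% interval -0.15 to 0.16). Srebf1 was 19.1 to 22.6 RPKM in the control group and 20.6 to 22.1 RPKM in the siRNA group (log2 fold change 0.03, 95% interval -0.14 to 0.21). Scap, the escort protein, was 18.0, 18.2 and 18.9 RPKM in the control group and 17.4, 16.9 and 17.5 RPKM in the siRNA group. Its groups were separate with siRNA lower, and the log2 fold change was -0.08 (95% interval -0.22 to 0.06, adjusted *p* = 0.293).

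The INSIG genes differed in opposite directions. Insig1, itself a target of the SREBPs, was 24.4, 26.3 and 23.8 RPKM in control libraries and 31.1, 31.7 and 32.9 RPKM in siRNA libraries. It was higher in every siRNA library, 1.29-fold over the means (log2 fold change 0.35, SE 0.06, adjusted *p* = 0.00247). Insig2, a second INSIG that also retains SCAP, was 12.6, 11.4 and 12.1 RPKM in control libraries and 10.3, 9.39 and 9.78 RPKM in siRNA libraries. It was 1.22-fold lower (log2 fold change -0.27, SE 0.07, adjusted *p* = 0.0198). The call of Insig2 did not hold under median ratio scaling (adjusted *p* = 0.0954), under quantile normalization (0.268), without control 1 (0.0600) or without siTet1/Tet2 replicate 2 (0.0811). The ratio of Insig1 to Insig2 within a library does not depend on scaling by a common factor. It was 1.94, 2.30 and 1.97 in control libraries and 3.01, 3.38 and 3.36 in siRNA libraries.

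Stard4 encodes a soluble protein that moves cholesterol between membranes. It was 7.94, 7.97 and 9.27 RPKM in the control group and 10.2, 9.84 and 10.8 RPKM in the siRNA group. The groups did not overlap, and the mean was 1.23-fold higher (log2 fold change 0.27, SE 0.09, adjusted *p* = 0.0342). This call was among the least stable, since the adjusted *p* was over 0.05 when any library but control 3 was left out (0.0658 to 0.117), with the libraries brought to equal sums (0.159), with no filter on low values (0.111) and with gene-wise variance (0.0597).

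Among the 7 genes of acetate activation and fatty acid synthesis, 3 were higher (42.9%, against 14.7% of all genes tested) and 1 was lower (14.3%, against 29.8%). Scd1, the stearoyl-CoA desaturase that makes monounsaturated fatty acids, had the largest log2 fold change of the 32 genes. By the ratio of group means the change of Fads2 was larger, at 2.26-fold lower. Scd1 was 11.7, 12.8 and 16.8 RPKM in the control group and 24.0, 29.0 and 32.8 RPKM in the siRNA group. The lowest siRNA library exceeded the highest control library, and the means of 13.8 ± 2.66 and 28.6 ± 4.42 RPKM differed 2.08-fold (log2 fold change 1.01, SE 0.15, adjusted *p* = 0.000807). Scd2, a desaturase of the same family, was 13.8, 13.6 and 16.5 RPKM in the control group and 17.9, 17.0 and 17.9 RPKM in the siRNA group. Its change was 1.20-fold (log2 fold change 0.26, SE 0.09, adjusted *p* = 0.0407), and the adjusted *p* was over 0.05 when any library but control 3 was left out (0.0807 to 0.142), with the libraries brought to equal sums (0.184), with no filter on low values (0.191) and with gene-wise variance (0.0972). Of the 100-base stretches of Scd1 and Scd2, 2.66% and 0.896% occur in other genes, mostly other Scd genes.

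Fads1 and Fads2 encode the delta-5 and delta-6 desaturases of polyunsaturated fatty acids and lie near each other on chromosome 19, at chr19:10182888-10196877 on the plus strand and chr19:10062765-10101746 on the minus strand (GRCm38, GENCODE M21). They differed in opposite directions. Fads1 was 23.7, 23.6 and 22.1 RPKM in the control group and 26.5, 28.5 and 29.5 RPKM in the siRNA group, 1.22-fold higher without overlap (log2 fold change 0.27, SE 0.07, adjusted *p* = 0.0104). Fads2 was 3.34, 2.17 and 3.08 RPKM in the control group and 0.912, 0.856 and 2.04 RPKM in the siRNA group. Its highest siRNA value lay just below its lowest control value, and the mean was 2.26-fold lower (log2 fold change -0.79, SE 0.20, adjusted *p* = 0.0130). Fads2 rested on an estimated 104 to 394 reads per library, and its adjusted *p* was 0.178 with no filter on low values, 0.0916 with gene-wise variance, 0.0503 without siTet1/Tet2 replicate 1 and 0.0544 without siTet1/Tet2 replicate 2.

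Fasn, the fatty acid synthase, was 12.6, 13.2 and 15.7 RPKM in control libraries and 9.90, 11.0 and 12.9 RPKM in siRNA libraries. The highest siRNA value lay inside the control range, and the log2 fold change of -0.28 (SE 0.11) had an adjusted *p* of 0.0826. With the replicate number as a block, control 1 with siRNA 1 and so on, the adjusted *p* of Fasn was 0.0113, and it was the only one of the 32 genes whose call the pairing changed. Without siTet1/Tet2 replicate 3 the adjusted *p* was 0.0322. Acss2, which activates acetate, and Elovl6, an elongase of long-chain fatty acids, were the lowest of the list together with Fads2, with control means of 1.67 and 1.19 RPKM. Neither was called, at log2 fold changes of -0.07 and -0.16 with overlapping groups.

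Ratios of RPKM within a library describe pairs of genes of the same reaction series or family. The pairs were chosen after their values were seen, and the difference within a pair was not tested. Mvd to Mvk was 0.665, 0.616 and 0.650 in control libraries and 1.52, 1.30 and 1.22 in siRNA libraries, so the level of Mvd passed that of Mvk. Scd1 to Scd2 was 0.850, 0.941 and 1.01 in control libraries and 1.34, 1.71 and 1.83 in siRNA libraries. Msmo1 to Hsd17b7 was 3.60, 4.60 and 3.51 against 8.61, 11.0 and 9.09. Fads1 to Fads2 varied most between libraries, at 7.09, 10.9 and 7.17 in control libraries and 29.1, 33.3 and 14.5 in siRNA libraries. Hmgcs1 to Acat2 was 2.81 ± 0.295 in control libraries and 4.67 ± 0.281 in siRNA libraries, and Dhcr7 to Sc5d was 0.718 ± 0.0211 and 1.14 ± 0.127.

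**Figure D4:**
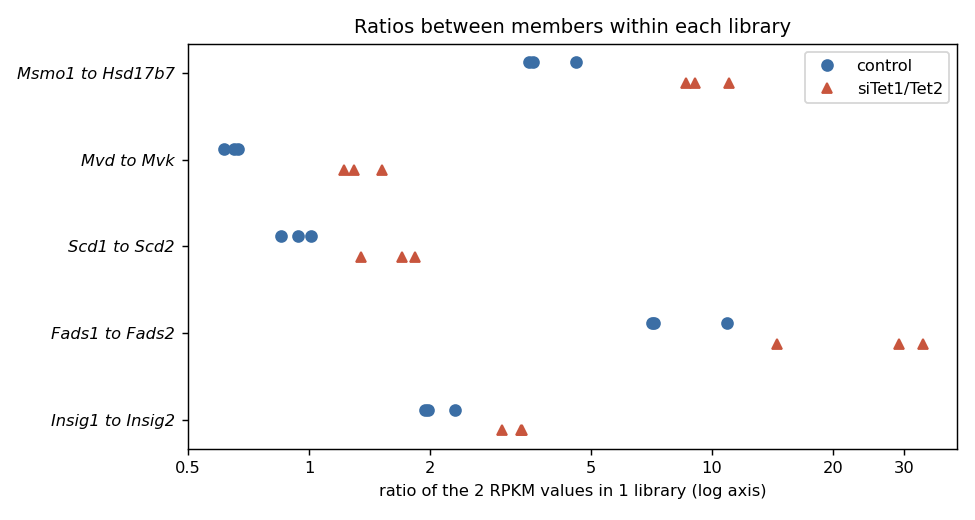
Ratio of the RPKM of 5 gene pairs within each of the 6 libraries, on a log axis, with circles for control and triangles for siRNA libraries. In each pair the siRNA libraries lie above the control libraries, for Insig1 to Insig2 at 3.01 to 3.38 against 1.94 to 2.30.

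A further 46 genes around the pathway were listed, of which 45 were tested (Cyp7b1 was under the minimum). Of these, 12 were higher and 14 lower, which is 26.7% and 31.1%, against the 14.7% and 29.8% of all genes tested, and their median log2 fold change was -0.00. In fatty acid synthesis and activation, 4 of 14 genes were higher (28.6%) and 2 lower (14.3%). Lpin1, a phosphatidate phosphatase, was 3.43 ± 0.103 RPKM in the control group and 7.41 ± 0.685 RPKM in the siRNA group (log2 fold change 0.92), and Acsl1, a long-chain acyl-CoA synthetase, had a log2 fold change of 0.55. Acsl4, an acyl-CoA synthetase that prefers arachidonic acid, was 27.4 ± 2.59 and 15.9 ± 1.67 RPKM (log2 fold change -0.75), and Me1, the malic enzyme that supplies NADPH, had a log2 fold change of -0.67.

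In the other branches of the mevalonate pathway, 2 of 12 genes were higher (16.7%) and 4 lower (33.3%), close to the shares of all genes tested. Nus1 and Dhdds encode the subunits of the prenyltransferase that makes dolichol, and their log2 fold changes were 0.35 and 0.23. Pdss1 and Coq2 of coenzyme Q synthesis were lower, with log2 fold changes of -0.73 and -0.48, and Pdss1 was 3.45 ± 0.368 RPKM in the control group and 1.68 ± 0.237 RPKM in the siRNA group. The adjusted *p* of Dhdds was 0.0273 and was over 0.05 in 5 alternatives, the highest being 0.125 with the libraries brought to equal sums.

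Of 10 genes of SREBP processing and sterol sensing, 2 were higher (20.0%, against 14.7% of all genes tested) and 5 lower (50%, against 29.8%). Mylip, a ubiquitin ligase that targets lipoprotein receptors and is induced by liver X receptors, was 19.9 ± 0.578 RPKM in the control group and 35.6 ± 0.642 RPKM in the siRNA group (log2 fold change 0.81, adjusted *p* = 2.28e-05). Nr1h2, which encodes one of the liver X receptors, had a log2 fold change of 0.24, and its adjusted *p* of 0.0174 was between 0.0502 and 0.0754 in 5 alternatives. Nr1h3, which encodes the other and was named after its values were seen, was not called. It was 32.7 RPKM in the control group and 33.0 RPKM in the siRNA group (log2 fold change 0.02, adjusted *p* = 0.927, limma). Mbtps1, the site-1 protease that cleaves SREBPs, was 25.8 ± 1.54 and 20.7 ± 0.469 RPKM (log2 fold change -0.31, adjusted *p* = 0.00579, and 0.0501 under quantile normalization), and Erlin1, a membrane protein of the sterol-regulated degradation machinery, had a log2 fold change of -0.50.

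Of 9 tested genes of sterol esterification, oxidation and transport, 4 were higher (44.4%, against 14.7% of all genes tested) and 3 lower (33.3%, near the 29.8% of all genes tested). Cyp27a1, the sterol 27-hydroxylase, was 3.63 ± 0.415 RPKM in the control group and 8.31 ± 0.212 RPKM in the siRNA group (log2 fold change 1.01, adjusted *p* = 7.85e-05), and Stard5, a sterol-binding protein, had a log2 fold change of 0.66. Ch25h, which makes 25-hydroxycholesterol, was 1.97 ± 0.210 and 0.625 ± 0.0898 RPKM (log2 fold change -0.87, adjusted *p* = 0.000107). Soat2, an acyltransferase that esterifies cholesterol, was 1.30 ± 0.230 and 0.220 ± 0.0420 RPKM (log2 fold change -0.91). Soat1, the other cholesterol acyltransferase, named after its values were seen, was far more abundant and was higher in the siRNA group, at 109.5 ± 1.88 and 171.5 ± 8.10 RPKM (log2 fold change 0.64, adjusted *p* = 8.23e-05). Of the sterol hydroxylases listed, Cyp27a1 was higher and Ch25h lower. Cyp7b1, a further one, was under the minimum for testing, at 0.135 RPKM in the control group and 0.0447 RPKM in the siRNA group. The 2 acyltransferases differed in opposite directions.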

How the data were processed

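RNA-seq was examined in 6 libraries, 3 of control and 3 of Tet1/Tet2 siRNA-treated BMMSCs, grouped by the labels. The authors trimmed adaptors, mapped the paired-end reads to GRCm38, quantified genes in DNASTAR Lasergene and deposited linear RPKM values in 1 table, named FPKM in their methods. Strand use, the annotation release and how reads with several matches were treated are not given in the sources used here. One more column holds p-values of the authors' own comparison of the groups; it was not used.

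For 37 repeated symbols the row of highest mean was used. The 13266 genes that averaged 0.1 RPKM or more were tested, two-sided, on log2(RPKM + 1) with limma 3.58.1 (lmFit, eBayes with trend) in R 4.3.3, with Benjamini-Hochberg adjustment over all of them. With 3 libraries a group, the smallest exact permutation p for a single gene is 0.1. Tested on simulated data for this comparison, with 200 of 13196 genes changed 4-fold, 199 changed genes were recovered and 10 others called. In the data a larger share of the genes tested was called, 14.7% higher and 29.8% lower. Most changes described above were smaller than 4-fold, with Scd1 at 2.08-fold. The simulation therefore does not give the recovery or the false calls for changes of that share and size. Depth, shared sequence, promoters and figures were computed in Python 3.11.15 (numpy 2.4.6, pandas 2.3.3, matplotlib 3.10.9). Depth was estimated as the read total that brought low RPKM values closest to whole reads. Between 55.1% and 60.7% of these values were within 0.1 of a whole read, so no count test was run and counting intervals are not given.

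The 32 genes, their groups by role, the 46 further genes and the marker lists (stromal, macrophage and haematopoietic, neutrophil, erythroid, proliferation, adipocyte) were chosen with earlier results of these data known. All 32 genes were named, and of the further genes the 2 largest increases and 2 largest decreases with an adjusted p under 0.05 in each of 4 lists. Soat1, Nr1h3 and Cyp7b1 were named in addition, after their values were seen.

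The labels number the replicates alike in both groups. Deviations of libraries from their group means, correlated over genes, gave r of 0.149, 0.117 and 0.462 for numbers 1, 2 and 3, so a fit with the replicate number as a block was added; what a number stands for is not given in the sources used here, and control 1 with siRNA 2 reached 0.332. The other alternatives were pseudocounts of 0.1 and 0.01, no filter, a minimum mean of 1 RPKM, 3 other scalings, other variance models, the sum of repeated rows, another definition of the fold and each library left out in turn.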

Additional observations from a re-analysis of the deposited data

How the results depend on the processing

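Each log2 fold change of the 32 genes was recomputed under 17 alternatives, 544 values in all. Of these, 486 kept their direction and their side of the threshold, 27 lost the call, 14 gained it and 17 changed sign, none of the last being called. Of the 13 genes called, 7 kept the call and direction in all 17 alternatives (Hmgcs1, Mvd, Msmo1, Dhcr7, Insig1, Scd1 and Fads1), and 8 genes that were not called were called in at least 1.

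The 10 genes called higher became 17 with quantile normalization and numbered 7 to 10 with a library left out. Under quantile normalization 27.1% of all genes tested were higher, against 14.7% with the values as deposited. The 3 genes called lower became 1 with no filter on low values and numbered 1 to 4 with a library left out, 1 being the count without siTet1/Tet2 replicate 2. The count of altered genes was 2 with a pseudocount of 0.1 or 0.01 and with the ratio of group means, against 1, and 0 to 1 with a library left out; the 1 gene was Fads2 in place of Scd1 without siTet1/Tet2 replicate 3 and with the libraries brought to equal sums. With the replicate block, 10 genes were called higher and 4 lower; only Fasn changed its call, at -0.28 (adjusted p = 0.0113, limma), and no other call among the 32 genes changed with the pairing. The further 46 genes gave 26 calls, and 20 to 27 with a library left out.

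Signs changed for values near 0. With the libraries brought to equal sums, Fdft1 was -0.016, Sc5d -0.0062, Srebf1 -0.029 and Srebf2 -0.058 on the log2 scale. Scap was 0.0094 under median ratio scaling and 0.053 under quantile normalization, where Acat2 was 0.071, Mvk 0.038, Acss2 0.17 and Elovl6 0.085. With a library left out, Fdft1 ranged from -0.051 to 0.13, Lss from -0.0082 to 0.20, Srebf1 from -0.019 to 0.096 and Srebf2 from -0.033 to 0.055. The cause of these shifts was not tested. Depth limits Fads2, Acss2 and Elovl6 most, which rested on the fewest estimated reads.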
